A study of Mus musculus with 6 samples.

Results

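The mast cell genes described here are *Cpa3*, *Cma1*, *Mcpt4*, *Tpsb2*, *Tpsab1*, *Ms4a2*, *Hdc* and *Mrgprb1*, 8 of the 56262 genes counted. They were chosen by name as genes that mark mast cells, with earlier results of these data known. Counts of these genes set beside all genes are therefore descriptions. Their rows were found by Ensembl identifier through the GENCODE M21 symbols. RNA-seq was performed on leg muscle of mouse fetuses at embryonic day 18.5, with 3 wild-type (WT) samples and 3 samples with knockout (KO) of *SYISL*, a long noncoding RNA studied for its role in muscle formation. The labels give no treatment and no strain for either group. Each group came from matings between mice of 1 genotype, so the genotype of the fetus and that of its mother or litter cannot be told apart. Nothing in the labels says whether a sample was a single fetus or a pool, so the p-values measure the spread between these samples, which may be technical.

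Mast cells are resident immune cells of connective tissue, found along vessels and nerves and in the connective tissue sheaths of muscle. They store proteases and histamine in secretory granules, bound to the proteoglycan serglycin, and release them when IgE on the high-affinity receptor FcεRI is crosslinked or when receptors of the MRGPR family are engaged. Their survival depends on the receptor tyrosine kinase KIT and its ligand, and the transcription factors GATA2 and MITF maintain their gene program.

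The depth was 82054811 to 102233181 counts per sample, and 3 counts corresponded to 0.02934 to 0.03656 CPM (counts relative to library size). The levels given use library sizes scaled with TMM factors. Defining genes of muscle fibers were detected in every sample, and the summed level of 10 of these genes was 19581 to 22076 CPM in WT and 42203 to 51749 in KO. No symbol in the annotation matched *SYISL*, so its loss was not checked. All 8 mast cell genes passed the filter on low counts, each with at least 321 counts in every sample.

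Mast cell genes were mostly higher in the KO group. Of the 8 genes, 6 rose, namely *Cpa3*, *Mcpt4*, *Tpsb2*, *Tpsab1*, *Ms4a2* and *Mrgprb1*, with fold changes of 1.57 to 3.88. None fell, and *Cma1* and *Hdc* did not pass the test. A gene was called when the edgeR quasi-likelihood test gave an adjusted p under 0.05 over the 22071 genes tested and the fold change was over 1.5. Of all genes tested, 8.31% were called higher in KO and 8.39% lower. The median log2 fold change was 0.70 over the 8 genes and -0.004 over all genes tested. With an unadjusted p under 0.05, 7 of the 8 genes were higher and 0 lower in edgeR, DESeq2 and limma-voom alike. In whole tissue, more mast cells and more of these RNAs per mast cell cannot be told apart.

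The carboxypeptidase and the chymases came first. *Cpa3* (ENSMUSG00000001865.2, chromosome 3, 20215620 to 20242181, minus strand, mm10) encodes carboxypeptidase A3, an exopeptidase stored in mast cell granules. Its level was 473, 499 and 559 CPM in WT against 959.6, 791 and 772 CPM in KO. All KO samples were above all WT samples, with KO replicate 1 the highest. The means were 510.2 ± 44.0 CPM (SD, n = 3) and 841 ± 103 CPM (SD, n = 3). The log2 fold change was 0.72 (SE 0.093, 95% interval 0.51 to 0.93), with an edgeR adjusted p of 0.000203. The microRNA gene *Mir7007* lies within *Cpa3* but shares no exon with it.

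*Mcpt4* (ENSMUSG00000061068.7, chromosome 14, 56059629 to 56062313, minus strand) encodes mast cell protease 4, a chymase of connective tissue mast cells. It was measured at 60.4, 52.7 and 60.8 CPM in WT against 136, 120.3 and 115 CPM in KO. The groups were well separated, and the log2 fold change was 1.09 (SE 0.074, 95% interval 0.93 to 1.26), with an edgeR adjusted p of 2.94e-06. *Cma1* (ENSMUSG00000022225.7, chromosome 14, 55941451 to 55944675, minus strand), the gene of mast cell chymase, lies in the same protease cluster. Its level was 334, 314 and 344 CPM in WT against 426, 352 and 347 CPM in KO. The lowest KO sample lay just above the highest WT sample, and only KO replicate 1 stood clearly higher. For *Cma1* the log2 fold change was 0.18 (SE 0.079, 95% interval 0.00 to 0.36), and the edgeR adjusted p of 0.0949 missed the threshold. It was 0.0361 with upper-quartile factors and 0.0454 with no filter on low counts, with the fold change still under 1.5. Of the 50-base windows in their transcripts, 5.38% for *Cma1* and 5.48% for *Mcpt4* also occurred in transcripts of another gene, mainly *Gm48934* and *Cma2*, respectively.

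The tryptases lie close together on chromosome 17. *Tpsb2* (ENSMUSG00000033825.10, 25366305 to 25369098, plus strand) encodes tryptase beta 2, a trypsin-like protease that is stored with heparin in the granules. Its level was 168, 175 and 200 CPM in WT against 306, 274 and 275 CPM in KO. All KO samples lay above all WT samples, and the log2 fold change was 0.65 (SE 0.071, 95% interval 0.49 to 0.81), with an edgeR adjusted p of 6.99e-05. *Tpsab1* (ENSMUSG00000024173.11, 25343245 to 25345562, minus strand), which encodes tryptase alpha/beta 1, was expressed at a much lower level, with 6.30, 4.82 and 5.86 CPM in WT against 8.02, 10.1 and 9.12 CPM in KO. Again the groups did not overlap, but here KO replicate 1 was the lowest KO sample, whereas it was the highest KO sample in each of the other 7 genes. The log2 fold change of *Tpsab1* was 0.68 (SE 0.11, 95% interval 0.42 to 0.94), with an edgeR adjusted p of 0.00102. Without WT replicate 2 it was 0.58, just under the fold threshold, so the call was lost while the edgeR adjusted p was 0.00133. No 50-base window of either tryptase transcript occurred in another gene.

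*Hdc* (ENSMUSG00000027360.5, chromosome 2, 126593667 to 126619299, minus strand) encodes histidine decarboxylase, the enzyme that makes histamine. Its level was 201, 227 and 245 CPM in WT against 234, 196 and 193 CPM in KO. The groups overlapped, with KO replicate 1 inside the WT range and the other KO samples just below it. The means were 224 ± 22.0 CPM (WT) and 208 ± 23.0 CPM (KO; SD, n = 3). The log2 fold change was -0.11 (SE 0.088, 95% interval -0.31 to 0.09), with an edgeR adjusted p of 0.35, and the interval did not reach a 1.5-fold change in either direction.

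The receptor genes gave low levels with clear differences. *Ms4a2* (ENSMUSG00000024680.12, chromosome 19, 11615523 to 11623719, minus strand) encodes the beta chain of FcεRI, which amplifies the signal of the receptor. Its level was 4.01, 3.88 and 4.42 CPM in WT against 8.39, 6.81 and 7.05 CPM in KO. All KO samples were higher than all WT samples, and the log2 fold change was 0.85 (SE 0.097, 95% interval 0.63 to 1.07), with an edgeR adjusted p of 8.92e-05. *Mrgprb1* (ENSMUSG00000070547.4, chromosome 7, 48444113 to 48456342, minus strand) encodes a Mas-related G protein-coupled receptor. It was measured at 7.09, 5.71 and 6.77 CPM in WT against 27.5, 23.6 and 25.0 CPM in KO, from 472 to 2576 counts per sample. The lowest KO sample was more than 3 times the highest WT sample. Its log2 fold change was 1.95 (SE 0.091, 95% interval 1.75 to 2.16), the largest of the 8 genes, with an edgeR adjusted p of 2.81e-07. Among all genes tested, 0.689% had a larger log2 fold change than *Mrgprb1*, against 6.8% for *Cpa3* and 29.9% for *Cma1*. No 50-base window of the *Mrgprb1* transcripts occurred in another gene, and 2.1% of those of *Ms4a2* did, mainly in *Ms4a4b*.

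**Figure D1:**
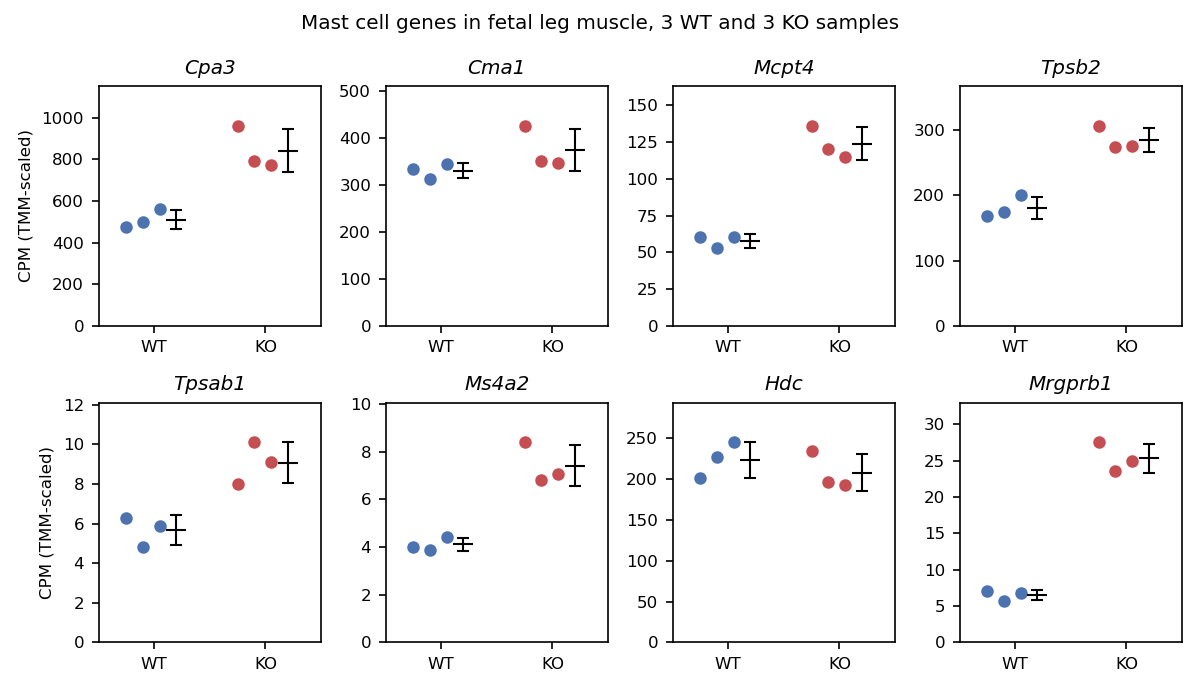
Level of each of the 8 mast cell genes in CPM (vertical axes, from 0) in the 3 WT and 3 KO samples. Points are samples and black marks are the mean ± SD, and the groups overlap for *Hdc* alone, while for *Cma1* the gap is narrow (344 against 347 CPM).

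Summed over the 8 genes, the level was 1255, 1282 and 1426 CPM in WT against 2106, 1773 and 1744 CPM in KO. The groups did not overlap, and the means were 1321 ± 91.8 CPM (SD, n = 3) and 1874 ± 201 CPM (SD, n = 3), a ratio of 1.42. On average these genes thus took 0.132% of the TMM-scaled library size in WT and 0.187% in KO. *Cpa3* contributed most to the sum, and without it the sum was 782 to 867 CPM in WT and 971 to 1146 in KO. Across all genes tested, every KO sample lay above every WT sample in 27.3% and below in 28.5%, compared with 7 and 0 of the 8 genes here.

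To compare levels between genes, CPM was divided by exon length in kilobases. In WT, the mean level per kilobase was 336 for *Cpa3*, 304 for *Cma1*, 114 for *Tpsb2*, 52.3 for *Mcpt4* and 35.1 for *Hdc*. *Tpsab1*, *Mrgprb1* and *Ms4a2* followed far behind with 2.70, 1.56 and 1.46 CPM per kilobase. The ranges of *Cpa3* and *Cma1* over the WT samples overlapped (312 to 368 against 288 to 316), but *Cpa3* was the higher in each WT sample. Those of *Mrgprb1* and *Ms4a2* overlapped as well (1.36 to 1.69 against 1.38 to 1.57), and their order differed between the WT samples. In KO the order began with *Cpa3* at 554, *Cma1* at 344, *Tpsb2* at 179, *Mcpt4* at 112 and *Hdc* at 32.5 CPM per kilobase. *Mrgprb1* came next at 6.05, above *Tpsab1* at 4.33 and *Ms4a2* at 2.64 CPM per kilobase, and the ranges of neighbors in this order did not overlap among the KO samples.

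The make-up of this group of transcripts differed between genotypes. *Cma1* accounted for 35.9% of the summed level per kilobase in WT and 27.8% in KO, and *Hdc* for 4.14% and 2.64%, respectively. *Cpa3* took 39.7% in WT and 44.9% in KO, *Mcpt4* 6.18% and 9.07%, and *Mrgprb1* 0.184% and 0.492%. The share of *Tpsb2* was close in both groups, at 13.4% and 14.5%.

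**Figure D2:**
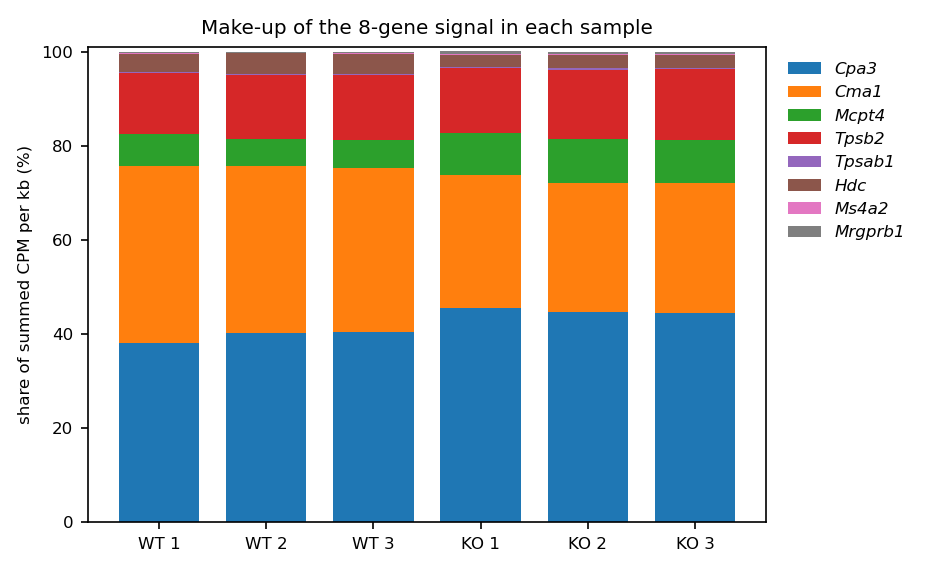
Share of each mast cell gene in the summed CPM per kilobase of exon of the 8 genes (vertical axis, percent), with 1 stacked bar per sample. The *Cma1* share is 34.7% to 37.6% in WT and 27.6% to 28.2% in KO, and the *Cpa3* share is 38.2% to 40.5% and 44.4% to 45.6%.

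Levels were also expressed relative to *Cpa3* within each sample, a comparison chosen after the values were seen. It was made for 11 genes, the other 7 of the group and *Kit*, *Fcer1a*, *Mrgprb2* and *Gata2*. *Cma1* was 70.7%, 63.0% and 61.6% of the *Cpa3* CPM in WT and 44.4%, 44.5% and 44.9% in KO. *Hdc* was 42.5%, 45.4% and 43.9% in WT and 24.4%, 24.8% and 25.1% in KO. Both ratios were lower in all KO samples than in all WT samples, by 0.54 and 0.83 on the log2 scale. *Mrgprb1* was 1.5%, 1.15% and 1.21% of *Cpa3* in WT and 2.86%, 2.98% and 3.23% in KO, a log2 difference of 1.24. *Mcpt4* was also higher relative to *Cpa3*, at 10.6% to 12.8% in WT and 14.2% to 15.2% in KO. *Tpsb2* was 35.1% to 35.8% in WT and 31.8% to 35.6% in KO, and these ranges overlapped, with an exact permutation p of 0.3, and those of *Tpsab1* overlapped as well (p = 0.9). Relative to *Cpa3*, *Kit* and *Gata2* were lower in all KO samples, by 0.33 and 0.57 on the log2 scale, and *Ms4a2*, *Mrgprb2* and *Fcer1a* were higher, by 0.13, 0.64 and 2.44. *Cpa3* itself was higher in KO, with a log2 fold change of 0.72. The log2 fold changes of *Kit* and *Gata2* in CPM were 0.38 and 0.15, so their lower ratios did not come with lower mean levels. For each ratio without overlap the two-sided exact permutation p was 0.1, the smallest that 3 against 3 samples allow, and 0.122 after adjustment over the 11 ratios.

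**Figure D3:**
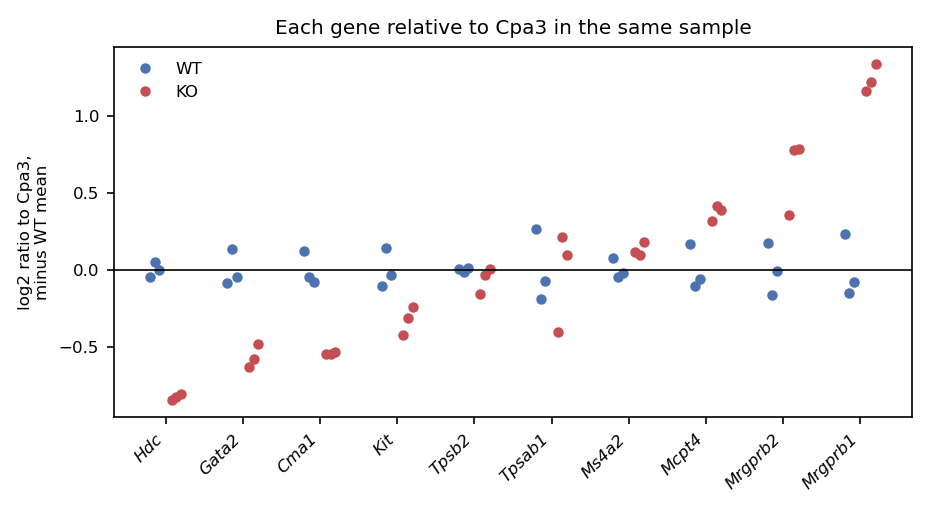
Log2 ratio of each gene's CPM to that of *Cpa3* in the same sample, minus the mean of the 3 WT samples (vertical axis), for 10 genes. Points are samples, *Hdc* and *Cma1* lie below 0 in all KO samples, and *Mrgprb1* lies farthest above 0 (mean difference 1.24), while *Fcer1a* is not shown.

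A wider set of 97 other genes of mast cell biology was examined in 6 lists, of which 86 passed the filter on low counts. Of the 86, 12 were called higher and 8 lower in KO, and the median log2 fold change was 0.24. By the same rule, 8.31% of all genes tested were called higher and 8.39% lower. These shares also belong beside the counts of each list below. At an edgeR adjusted p under 0.05 with any fold change, 43 were higher and 12 lower, compared with 21.9% and 23.1% of all genes tested.

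Receptors made up most of the genes that rose. Of 18 receptor genes tested, 7 were called higher and 1 lower, and their median log2 fold change was 0.45. *Fcer1a*, which encodes the IgE-binding alpha chain of FcεRI, had 0.285, 0.460 and 0.379 CPM in the WT samples but 3.52, 3.16 and 3.20 CPM in the KO samples. The KO samples were far above the WT samples, with a log2 fold change of 3.14 (SE 0.16, edgeR adjusted p = 4.03e-07). The third chain gene, *Fcer1g*, shared with other Fc receptors, gave 43.1 ± 1.63 (WT) and 55.9 ± 5.56 CPM (KO; SD, n = 3 each), below the fold threshold. *Mrgprb2*, the receptor for cationic peptides and drugs on connective tissue mast cells, was at 4.20, 3.51 and 4.38 CPM in WT against 9.70, 10.7 and 10.5 CPM in KO, with a log2 fold change of 1.35 and an edgeR adjusted p of 2.78e-06. Both this gene and *Mrgprb1* rose, whereas *Mrgprb13* fell from 0.244 to 0.0838 CPM, the latter from 7 to 9 counts per sample. The other receptor genes that rose were the complement receptor gene *C5ar1* (0.89), the histamine receptor gene *Hrh4* (0.80), the leukotriene receptor gene *Cysltr1* (0.70), *Cd200r3* (0.69) and *Cd33* (0.62), with log2 fold changes in parentheses. The calls of *Hrh4* and *Cd33* were lost in some fits with 1 sample left out. Without KO replicate 1 or WT replicate 3 the edgeR adjusted p of *Hrh4* was 0.0519 or 0.0649. Without KO replicate 1 or WT replicate 1 the log2 fold change of *Cd33* was 0.58, just under the fold threshold. Its edgeR adjusted p was then 0.000267 or 0.000643. *Kit* was 31.0, 38.9 and 38.6 CPM in WT against 50.6, 44.9 and 46.1 CPM in KO. These groups did not overlap and the edgeR adjusted p was 0.00504, but at a log2 fold change of 0.38 *Kit* did not reach the fold threshold.

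Genes for granule storage and mediator synthesis moved in both directions. Of 16 tested, 4 rose and 2 fell, with a median log2 fold change of 0.18. The genes that rose make leukotrienes, namely *Ltc4s* (log2 fold change 1.27), *Alox5ap* (0.78) and *Alox5* (0.76), or serotonin, namely *Tph1* (0.76). *Ptgs1*, which encodes cyclooxygenase 1, fell from a WT mean of 33.3 ± 3.41 to a KO mean of 12.3 ± 0.427 CPM (SD, n = 3), and *Rab27b*, a GTPase gene of granule release, fell from 40.7 ± 5.77 to 20.6 ± 0.810 CPM. *Srgn*, the gene of serglycin, averaged 75.4 (WT) and 104 CPM (KO), with a log2 fold change of 0.46 and an edgeR adjusted p of 0.000231, below the fold threshold. *Hpgds* was lower in every KO sample, with means of 22.4 (WT) and 18.5 CPM (KO). Its log2 fold change was -0.27 and its edgeR adjusted p 0.00335, also below the fold threshold. With any fold change, 9 of the 16 genes were higher and 3 lower at an edgeR adjusted p under 0.05.

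None of the 8 other granule protease genes tested was called higher, and 3 fell, all expressed at a low level. *Prss34* fell from 2.90 to 1.85 CPM, *Mcpt2*, a protease gene of mucosal mast cells, from 0.934 to 0.489 CPM, and *Gzmb* from 0.334 to 0.168 CPM. *Tpsg1*, a membrane-anchored tryptase gene and the most abundant of this list, was at 3.22 ± 0.575 (WT) and 4.26 ± 0.416 CPM (KO; SD, n = 3). *Mcpt8* was at 0.561 ± 0.0312 and 0.833 ± 0.121 CPM. For both, every KO sample lay above every WT sample and the edgeR adjusted p was 0.035 and 0.0168, but the fold changes of 1.32 and 1.49 were under the threshold. *Ctsg* went the other way, from 1.21 ± 0.216 to 0.849 ± 0.102 CPM, with every KO sample below every WT sample. Its edgeR adjusted p was 0.0337, and its log2 fold change of -0.51 was also under the fold threshold. *Mcpt1*, another mucosal gene, was not tested, with 8 to 16 counts in WT and 4 in each KO sample.

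Signaling, transcription factor and growth factor genes differed mostly by less than 1.5-fold. Of the 19, 17 and 8 tested, 7, 8 and 4 were higher at an edgeR adjusted p under 0.05 with any fold change, and 2, 1 and 1 lower. With the fold threshold the counts were small, beside the 8.31% and 8.39% of all genes called higher and lower. Of 19 signaling genes tested, none rose and only *Rasgrp1* fell, from a mean of 7.05 to 1.34 CPM (log2 fold change -2.40). Of 17 transcription factor genes, none rose and *Cebpa* fell, from 44.5 to 17.7 CPM. *Gata2* averaged 27.1 ± 2.96 (WT) and 30.1 ± 2.47 CPM (KO; SD, n = 3), with overlapping groups and an edgeR adjusted p of 0.191. *Mitf* was 9.23 ± 0.103 CPM and 11.5 ± 0.916 CPM, a log2 fold change of 0.31 below the fold threshold. Every KO sample of *Mitf* lay above every WT sample, with an edgeR adjusted p of 0.00534. Of 8 growth factor and attractant genes tested, *Ccl2* rose from 1.98 to 3.61 CPM. *Kitl*, which encodes the ligand of KIT, averaged 117 (WT) and 132 CPM (KO), with a log2 fold change of 0.18. Its groups did not overlap and the edgeR adjusted p was 0.019, but the fold threshold was not reached. *Il3* had no count in any sample.

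**Figure D4:**
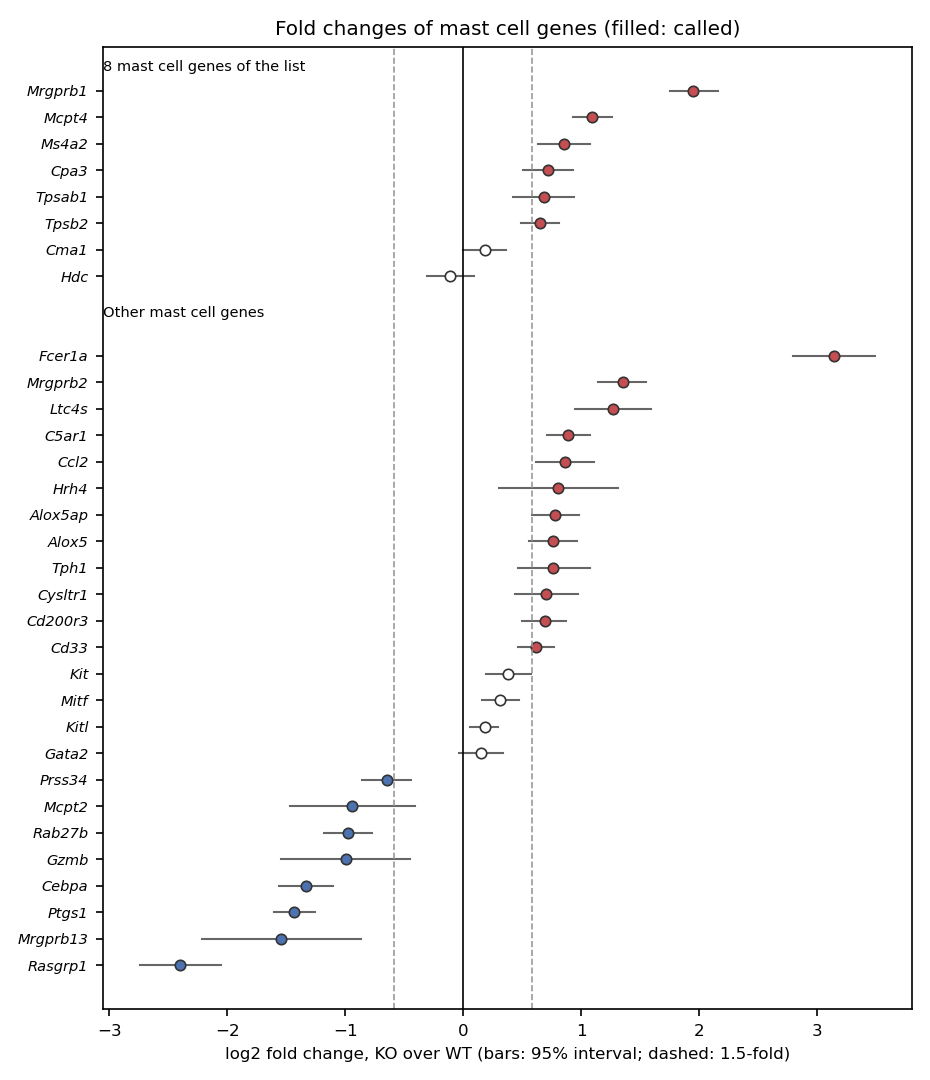
Log2 fold change of KO over WT (horizontal axis) with its 95% interval for the 8 mast cell genes (top) and for 24 other genes of mast cell biology (below), with filled points for genes called. *Fcer1a* lies highest at 3.14 and *Rasgrp1* lowest at -2.40, while *Cma1* and *Hdc* are open points near 0.

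The sequence before the start of the genes is shown for 5 of the 8 mast cell genes, to set genes with large and small differences side by side. RefSeq windows (GRCm38.p6, the assembly called mm10) matched 6 of the 8 genes, and *Tpsb2* and *Tpsab1* had none. Each line gives the 250 bases before the RefSeq start, 5′ to 3′ on the strand of the gene, which is minus in each case. Capitals mark GATAA, the core read by GATA factors, CATGTG, an E-box read by MITF, and TATAAA, the TATA box, searched on both strands, so that their reverse complements are in capitals as well.
Cpa3, chr3:20242182-20242431: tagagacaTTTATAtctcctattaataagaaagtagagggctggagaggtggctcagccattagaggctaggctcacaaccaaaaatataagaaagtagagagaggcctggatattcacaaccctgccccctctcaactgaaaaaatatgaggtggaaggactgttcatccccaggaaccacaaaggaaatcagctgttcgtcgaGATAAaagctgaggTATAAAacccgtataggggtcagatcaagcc
Mcpt4, chr14:56062311-56062560: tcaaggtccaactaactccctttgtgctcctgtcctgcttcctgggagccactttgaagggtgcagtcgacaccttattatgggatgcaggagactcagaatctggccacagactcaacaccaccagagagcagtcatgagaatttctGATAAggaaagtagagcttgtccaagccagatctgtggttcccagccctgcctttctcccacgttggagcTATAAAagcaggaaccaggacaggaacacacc
Ms4a2, chr19:11623720-11623969: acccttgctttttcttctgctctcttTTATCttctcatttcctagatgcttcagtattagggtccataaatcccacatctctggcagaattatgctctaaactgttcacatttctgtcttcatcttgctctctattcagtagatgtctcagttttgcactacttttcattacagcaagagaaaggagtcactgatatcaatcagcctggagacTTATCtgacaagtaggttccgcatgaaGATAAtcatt
Cma1, chr14:55944676-55944925: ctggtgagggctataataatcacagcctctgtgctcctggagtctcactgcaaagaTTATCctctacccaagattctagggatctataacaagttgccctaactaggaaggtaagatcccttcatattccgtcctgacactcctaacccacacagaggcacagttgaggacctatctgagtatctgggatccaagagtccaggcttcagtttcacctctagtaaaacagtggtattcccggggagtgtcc
Mrgprb1, chr7:48456343-48456592: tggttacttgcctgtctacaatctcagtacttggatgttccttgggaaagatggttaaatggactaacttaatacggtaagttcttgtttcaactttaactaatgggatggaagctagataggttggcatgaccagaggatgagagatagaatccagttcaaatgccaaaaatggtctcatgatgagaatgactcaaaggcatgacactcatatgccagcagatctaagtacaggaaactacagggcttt

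GATAA was found in 4 of the 6 windows, those of *Cpa3*, *Mcpt4*, *Ms4a2* and *Cma1*, and in 22.6% of all 32851 windows of this length. The *Ms4a2* window held 3 matches, at 224, 37 and 10 bases before the start, and the *Cpa3* window held 1 at 45 bases. In *Mcpt4* it lay at 102 bases and in *Cma1* at 194 bases. TATAAA was found in *Cpa3*, at 242 and 31 bases, and in *Mcpt4*, at 32 bases, and in 12.4% of all windows. CATGTG was in none of the 6 windows and in 12.3% of all windows. The windows of *Mrgprb1*, the gene with the largest fold change, and of *Hdc* held none of the 3 motifs. The *Hdc* window, at 126618679 to 126618928 on chromosome 2, lies inside the gene span given above, because its RefSeq start differs. These are matches of letters, and binding was not measured.

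Other cell types of the tissue also differed between the groups. The summed level of 12 macrophage genes was 503 to 540.4 CPM in WT and 748 to 837 in KO, with 9 called higher, including *Cd163* (log2 fold change 1.91) and *Mrc1* (0.91). The median log2 fold change of these 12 genes was 0.79. Of 9 pan-leukocyte genes, 2 were called higher, *Ptprc* (log2 fold change 0.77) and *Cd48* (0.88), and the sum was 171 to 188 CPM in WT and 195 to 226 in KO. The basophil list, whose 6 genes are all in the mast cell lists as well, had a sum of 62.1 to 75.3 CPM in WT and 45.7 to 47.5 in KO, with *Cd200r3* higher and *Prss34* and *Cebpa* lower. That direction came from *Cebpa* alone, since the other 5 genes summed to 22.3 to 23.4 CPM in WT and 28.3 to 30.0 in KO. Only 3 of 9 eosinophil genes passed the filter, with a sum of 1.39 to 1.92 CPM in WT and 2.13 to 2.48 in KO, and *Il5ra* was called higher (log2 fold change 0.72). Their part in the mast cell result was not tested.

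Larger differences were seen outside the immune lists. The sum of 14 epidermal genes was 17458 to 26089 CPM in WT and 950.1 to 1062 in KO, and all 14 were called lower. The sum of 8 red blood cell genes was 3949 to 5192 CPM in WT and 549.8 to 670.3 in KO, with 7 called lower. Of 10 muscle fiber genes 9 were called higher, as were all 8 adipocyte genes, whose sum was 109 to 145 CPM in WT and 421 to 511 in KO. None of 10 fibroblast genes and none of 9 endothelial genes was called, and their median log2 fold changes were 0.21 and 0.20. At an edgeR adjusted p under 0.05 with any fold change, 7 genes of each list were higher and 0 lower. Over all genes tested these shares were 21.9% and 23.1%. The fibroblast sum was 44791 to 47509.7 CPM in WT and 53790.5 to 55575 in KO, and the endothelial sum 766 to 792 and 889 to 939. *Kit* is also expressed by melanocytes, of whose 8 genes only *Tyrp1* was called higher (log2 fold change 1.08), with a sum of 36.1 to 47.6 CPM in WT and 40.5 to 45.8 in KO. Whether the different make-up of the samples had a part in the levels of the 8 mast cell genes, or of the 97 other genes of mast cell biology, was not tested.

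**Figure D5:**
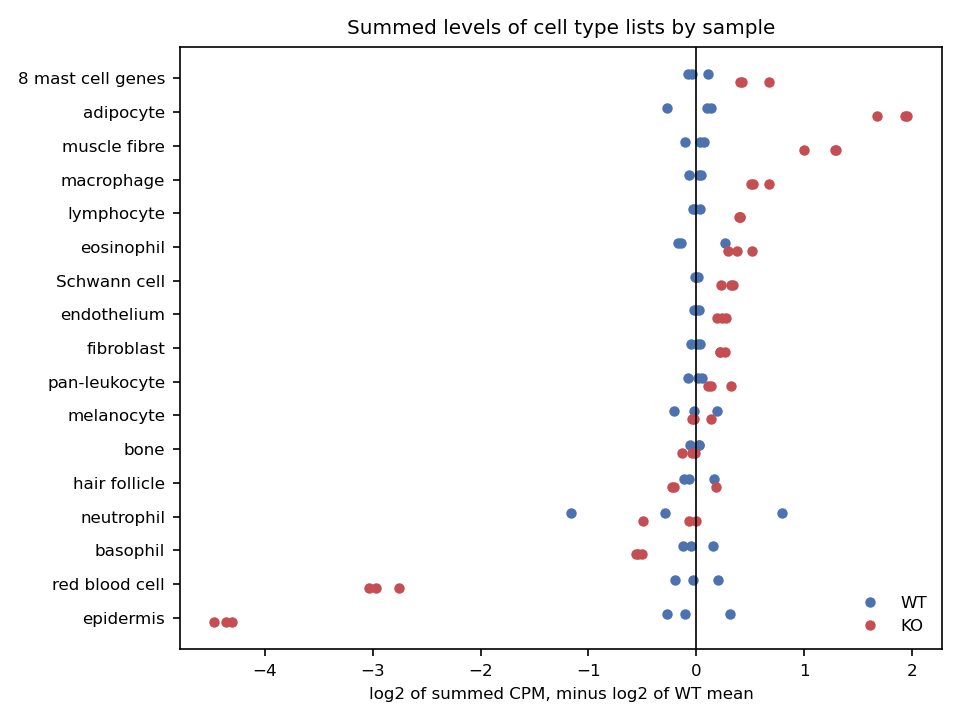
Summed CPM of 16 cell type lists and of the 8 mast cell genes in each sample, as log2 of the sum minus log2 of the WT mean (horizontal axis). Points are samples, the mast cell sum lies above 0 in all KO samples (ratio of means 1.42), and the epidermal and red blood cell sums lie farthest below 0.

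KO replicate 1 was the highest KO sample in 7 of the 8 mast cell genes. It also had the lowest muscle fiber sum of the KO group, 42203 CPM compared with 51749 and 51247 CPM in the other KO samples. Without it, the log2 ratio of the summed mast cell level was 0.42, compared with 0.50 with all samples, and 6 genes were still called higher.

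The genes whose profile over the 6 samples was most like the mean profile of the 8 mast cell genes were the noncoding RNA *C030037D09Rik*, *Parp12*, *Cpxm2*, *Ms4a6b* and *Sp140*. Likeness was the root mean square difference of centered log2 CPM among genes with a mean of at least 1 CPM. It was 0.027, 0.042, 0.044, 0.044 and 0.05, respectively. The mast cell genes themselves lay between 0.062 for *Ms4a2* and 0.61 for *Mrgprb1* from their own mean profile, with *Cpa3* at 0.068 and *Hdc* at 0.44. The 6 samples fall into 2 genotypes, and the log2 fold changes of these 5 genes were 0.73 to 0.80.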

How the data were processed

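RNA-seq counts of leg muscle from fetal mice at embryonic day 18.5 were used (3 WT, 3 *SYISL* KO). Per the labels and the methods, the authors trimmed 150 bp paired-end reads with Trim Galore 0.6.6, mapped them to mm10 with HISAT2 2.2.1 and counted per gene with featureCounts 2.0.1. The deposited values are raw counts, with no normalization. Which annotation and strand setting were used, and if reads or pairs were counted, is not given in the sources used here.

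Counts were analysed in R 4.3.3 with edgeR 4.0.16 (filterByExpr, TMM, quasi-likelihood F-test on genotype), with Benjamini-Hochberg adjustment over 22071 genes, and genes past 0.05 in adjusted p and 1.5 in fold change were called. DESeq2 1.42.0 and limma-voom (limma 3.58.1), other scalings, filters and fold thresholds, a replicate block and leaving out each sample were alternatives. The fit was also run on simulated counts with the same spread setting for all genes, and the outcome is not reported here. Of the gene IDs, 55227 matched GENCODE M21, which gave exon lengths. The 8 genes and all lists were chosen with earlier results of these data known. Genes named are the 8, called genes of the mast cell lists, *Kit*, *Fcer1a*, *Gata2*, *Mitf* and *Kitl*, and the 5 most alike profiles. *Srgn*, *Hpgds*, *Fcer1g*, *Mcpt1*, *Mcpt8*, *Tpsg1*, *Ctsg*, *Il5ra*, *Ptprc*, *Cd48*, *Cd163*, *Mrc1* and *Tyrp1* were added after their values were seen. The result of 1 gene of the macrophage list is not reported here. No pair of samples within a group was alike within counting noise at the mean chi-square per gene (4.85 to 32.9). The median per gene was 0.96 to 2.15, lowest for KO replicates 2 and 3. Whether samples were technical replicates was not tested.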

Additional observations from a re-analysis of the deposited data

How the results depend on the processing

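Each of the 8 genes kept its direction in the 14 alternatives that give a fold change, and 6 were called higher in KO in all 16, except that 2 were at a fold change over 2 and 5 without WT replicate 2, where *Tpsab1* was lost. None of the 8 was called lower in any alternative. The log2 ratio of the summed level was 0.42 to 0.57 under the 9 alternatives that apply to it. The *Cma1* log2 fold change was 0.08 to 0.25, with an adjusted p of 0.0361 to 0.334, and that of *Hdc* was -0.2 to -0.04, and neither was called in any alternative.

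Of the other mast cell genes, 3 were higher and 4 lower at a fold change over 2, and 43 were higher with no fold-change threshold, against 12 and 8. Over all genes, 774 were higher and 1269 lower at a fold change over 2, and 4838 were higher and 5098 lower with no fold-change threshold, against 1835 and 1852. When 1 sample was left out, 1660 to 1953 of all genes were higher and 1691 to 1924 lower, with 11 to 14 of the other mast cell genes higher and 8 to 9 lower. Upper-quartile scaling moved the median log2 fold change of all genes to 0.064, and library size alone to -0.073.

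Deviations of samples with the same replicate number correlated at -0.2, -0.13 and 0.047, so the numbers were not taken to pair the samples. A fit with the replicate block gave 1744 genes higher and 1777 lower, and 6 of the 8 mast cell genes higher.

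With 3 samples in each group, the precision of low genes such as *Fcer1a* in WT and *Mrgprb13* in KO is limited by depth.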
